A study of Mus musculus with 20 samples.

Results

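Pyruvate made in the cytosol enters the mitochondrion through the mitochondrial pyruvate carrier, a pair of inner membrane subunits encoded by Mpc1 and Mpc2. Inside, the pyruvate dehydrogenase complex converts it to acetyl-CoA. The complex is switched off by pyruvate dehydrogenase kinases (Pdk1, Pdk2, Pdk3 and Pdk4), which phosphorylate its E1 subunit, and switched on again by a phosphatase with catalytic subunits encoded by Pdp1 and Pdp2 and a regulatory subunit encoded by Pdpr. In muscle, Pdk4 is known as a kinase gene that responds to fasting and to fatty acids, when glucose carbon is spared. These 9 genes were chosen by name for their place in this step, with earlier results of these data known. Of them, 8 had a probe set that carried their symbol alone, out of 19938 genes tested in all. Mpc2 is not analysed here. Each of the 8 genes had 1 probe set.

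The RNA came from the gastrocnemius, a calf muscle built largely of fast fibres. The donors were adult C57BL/6 males, with 5 arrays in each of 4 groups. NCoR1-MKO mice lack the nuclear receptor corepressor NCoR1 in muscle and were set against CON mice, labelled only as controls. PGC-1alpha-mTg mice carry a muscle transgene for PGC-1alpha, a coactivator of transcription, and were set against WT mice. The promoter of the transgene, the Cre line, the genotype of CON and the age of the mice in weeks are not given in the sources used here, nor is it said that each array holds a separate mouse, so the tests measure the spread between these samples only. Levels are log2 RMA values, changes are differences of log2 levels against a model's own controls, and a gene was called when its limma p, adjusted over all genes by the Benjamini-Hochberg method, was under 0.05.

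Array medians lay between 5.84 and 5.91 in PGC-1alpha-mTg and WT and between 6.03 and 6.08 in NCoR1-MKO and CON, and no pair of arrays held identical values. PGC-1alpha-mTg 5 stood somewhat apart, with a mean correlation across genes of 0.9901 to the other arrays of its group, while every other array had at least 0.9927. Without it the same 6 genes described here were called in PGC-1alpha-mTg, with changes of 0.47 for Pdpr, 0.40 for Mpc1, 0.39 for Pdk4, 0.30 for Pdp2, 0.18 for Pdk2 and -0.25 for Pdk1. Ncor1 is not analysed here, so the knockout label was not checked. Ppargc1a, which encodes PGC-1alpha, was 3.55-fold higher in PGC-1alpha-mTg (adjusted p = 9.88e-15), with no overlap between groups. The mean level of 9 skeletal muscle markers (contractile, creatine kinase, myoglobin and desmin genes) lay between 12.74 and 12.76 on PGC-1alpha-mTg arrays, between 12.73 and 12.77 on WT arrays, between 13.26 and 13.30 on NCoR1-MKO arrays and between 13.22 and 13.25 on CON arrays, on a scale whose highest value was 14.47. These means hide changes in both directions. In PGC-1alpha-mTg 2 of the 9 markers were called higher, Myh1 (0.32 ± 0.05) and Mb (0.29 ± 0.05). Another 2 were called lower, Tnni2 (-0.16 ± 0.03) the most. Over all genes, 11.9 percent were called higher and 16.1 percent lower in this comparison. In NCoR1-MKO only Mylpf was called (0.14 ± 0.03), and 11 of the alternative settings ended that call. Each whole piece of muscle also holds other cells, and in such tissue fewer cells of a type and less RNA per cell cannot be told apart.

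In muscle that overexpressed PGC-1alpha, 5 of the 8 genes rose and 1 fell. Those that rose were the carrier gene Mpc1, the kinase genes Pdk2 and Pdk4, and the phosphatase genes Pdp2 and Pdpr. The Mpc1 probe set is of uncertain identity, as set out below. The kinase gene Pdk1 fell, while Pdk3 and Pdp1 did not pass the test. The changes were moderate, from -0.22 to 0.47 on the log2 scale. The 6 calls are 75.0 percent of the 8 genes, beside 28.0 percent of all genes called in this comparison (11.9 percent higher and 16.1 percent lower). Except for Pdk3 and Pdp2, each of the 8 genes had a mean level above that of at least 82.5 percent of genes. With the dimmest 40 percent of genes left out, 5453 genes were called in this comparison, beside 5575 of all 19938. The share among brighter genes is thus larger than 28.0 percent. The median change of the 8 genes was 0.26, beside 0.018 over all genes. In muscle without NCoR1 limma called 0 of the 8 genes, beside 2.63 percent of all genes (1.31 percent higher and 1.32 percent lower). Their changes ran from -0.09 to 0.16, and 2 of the 8, Mpc1 and Pdpr, had an unadjusted p under 0.05, as did 11.8 percent of all genes.

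**Figure D1:**
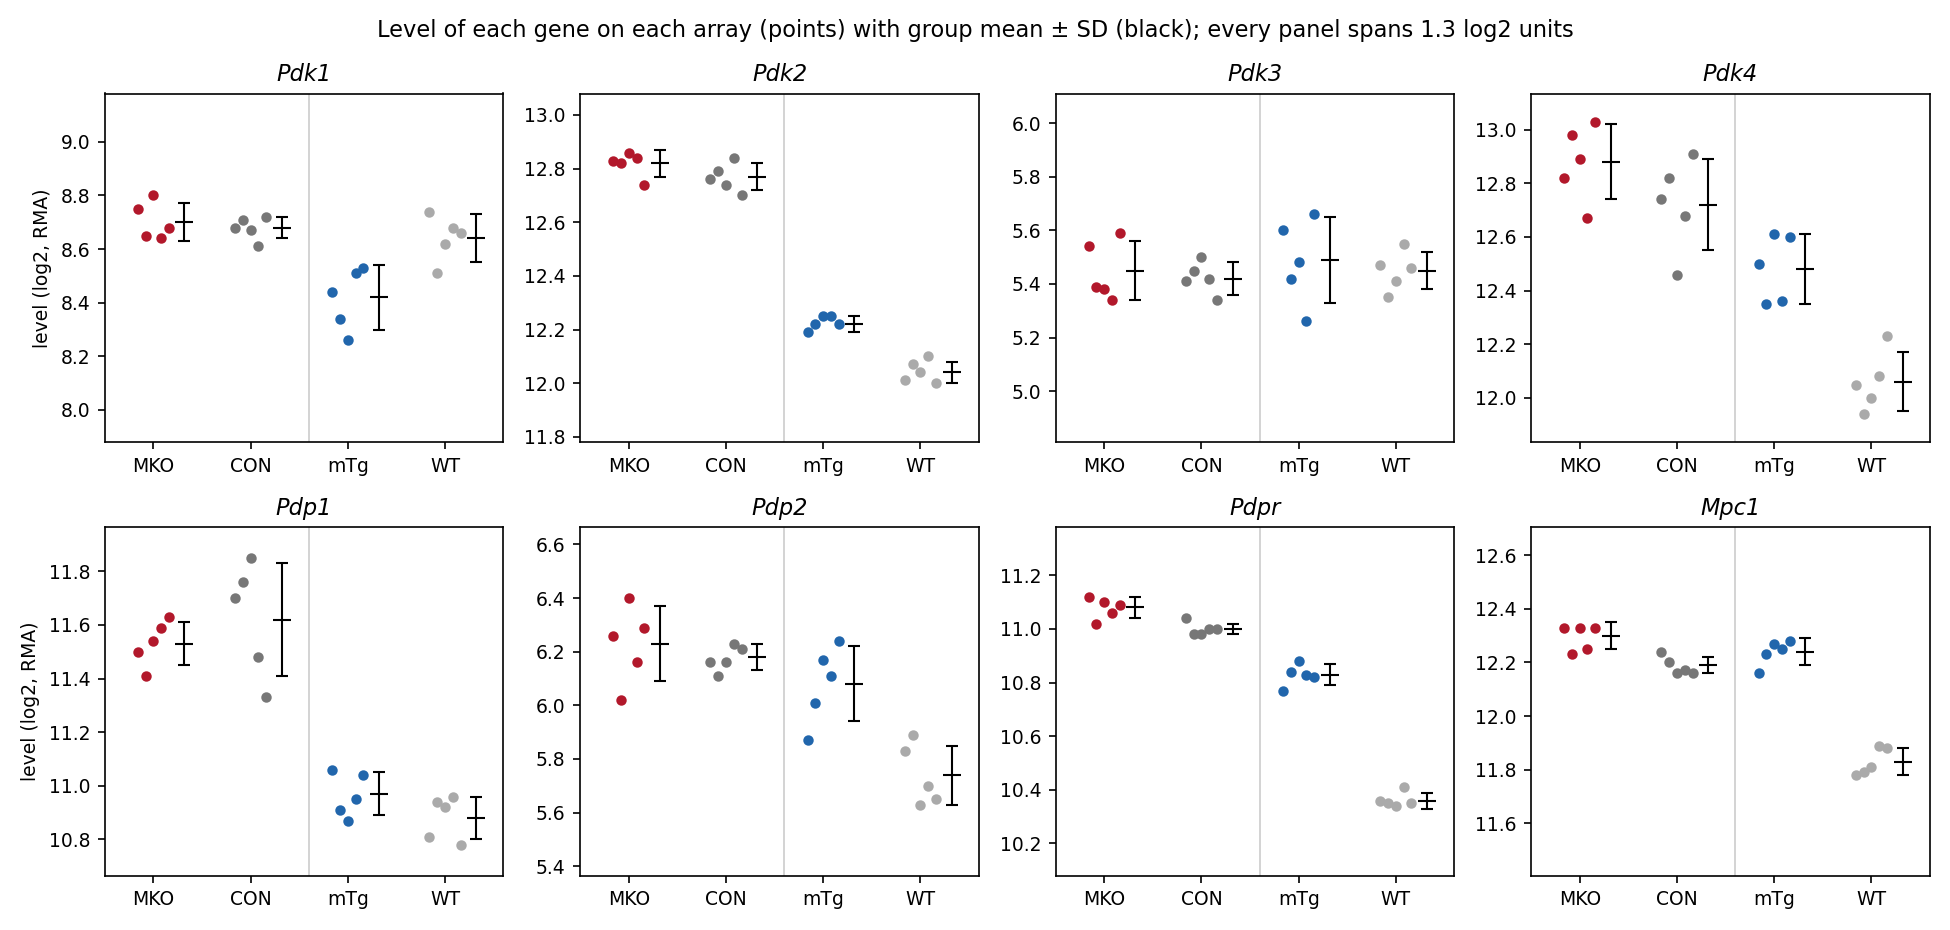
Level of each gene on each of 20 arrays (points, log2 RMA values) in NCoR1-MKO (MKO), CON, PGC-1alpha-mTg (mTg) and WT, with the group mean ± SD in black (n = 5 each). A grey line parts the cohorts, whose levels appear to have been normalized separately, and the PGC-1alpha-mTg points of Pdk2, Pdk4, Pdpr and Mpc1 all lie above the WT points.

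Entry of pyruvate was represented by Mpc1 alone. Its probe set, 10402648, read 12.16, 12.23, 12.27, 12.25 and 12.28 in PGC-1alpha-mTg, against 11.78, 11.79, 11.81, 11.89 and 11.88 in WT. The lowest transgenic array lay 0.27 above the highest WT array. The mean was 12.24 ± 0.05 in PGC-1alpha-mTg and 11.83 ± 0.05 in WT (SD, n = 5 each), a change of 0.41 ± 0.04 (SE) or 1.33-fold (95% interval 1.26 to 1.41, adjusted p = 2.64e-08). In the other cohort Mpc1 read 12.33, 12.23, 12.33, 12.25 and 12.33 in NCoR1-MKO, against 12.24, 12.20, 12.16, 12.17 and 12.16 in CON. All 5 knockout arrays lay above the CON mean and 4 of them above the highest CON array, but the change of 0.11 ± 0.04 did not pass over all genes (adjusted p = 0.168). With a variance prior that follows the level of a gene (eBayes with trend and robust) it did (adjusted p = 0.0360), and Mpc1 was then the only one of the 8 genes called in the knockout.

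The identity of the Mpc1 probe set is uncertain. RefSeq (GRCm38.p6) places Mpc1 on chromosome 17 and lists a pseudogene copy of 885 bases, Mpc1-ps, on chromosome 12. The 8 probe sets with the nearest numbers all name genes of chromosome 12 and 0 of them a gene of chromosome 17. For each of the other 7 genes described here, 7 or 8 of the 8 nearest probe sets lay on the gene's own chromosome. How far the values of Mpc1 read the gene, the copy or both cannot be told apart with these files.

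Promoters are shown for the 3 genes with the largest rises in the transgenic muscle, to show the sequence around their starts. Each window holds 250 bases before and 50 after a RefSeq transcription start of assembly GRCm38.p6, written 5′ to 3′ on the gene's strand, with searched motifs in capitals. The windows are chr17:8283537-8283836 (plus strand) for Mpc1, chr8:111094495-111094794 (plus strand) for Pdpr and chr6:5496229-5496528 (minus strand) for Pdk4.
Mpc1: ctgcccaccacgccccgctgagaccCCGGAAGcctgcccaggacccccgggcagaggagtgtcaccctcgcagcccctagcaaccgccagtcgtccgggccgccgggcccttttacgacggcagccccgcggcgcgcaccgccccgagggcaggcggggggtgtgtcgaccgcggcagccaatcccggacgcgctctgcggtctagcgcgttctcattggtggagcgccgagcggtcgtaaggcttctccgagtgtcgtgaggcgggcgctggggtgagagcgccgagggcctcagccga
Pdpr: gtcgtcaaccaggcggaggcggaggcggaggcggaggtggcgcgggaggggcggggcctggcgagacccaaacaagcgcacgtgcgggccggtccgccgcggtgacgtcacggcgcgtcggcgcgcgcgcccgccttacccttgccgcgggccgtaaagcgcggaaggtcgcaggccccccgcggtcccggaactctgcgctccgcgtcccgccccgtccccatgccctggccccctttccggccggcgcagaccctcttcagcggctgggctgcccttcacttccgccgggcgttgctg
Pdk4: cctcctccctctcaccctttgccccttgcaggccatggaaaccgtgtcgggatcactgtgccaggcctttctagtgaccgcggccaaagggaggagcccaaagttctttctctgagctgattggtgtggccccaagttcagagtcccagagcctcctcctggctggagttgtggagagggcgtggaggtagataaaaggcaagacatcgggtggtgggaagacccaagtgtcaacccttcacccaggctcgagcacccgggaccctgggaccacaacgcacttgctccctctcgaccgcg

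The 3 windows differ in composition. The Pdpr window is 76.7 percent G and C with 47 CG dinucleotides, the Mpc1 window 73.7 percent with 39, and the Pdk4 window 60.7 percent with 12, beside medians of 52.7 percent and 7 over all 32851 promoters in the table. The table held 11 windows for 8 of the 9 genes (Mpc2 included, Pdp1 not). Both strands were searched for TNAAGGTCA (estrogen-related receptors), its inner part AAGGTCA, the direct repeat of AGGTCA with 1 base between (PPAR with RXR), GTAAACA (FOXO), CCGGAAG (GABPA and other ETS factors) and GCGCA followed after any 1 base by GCGC (NRF1). The first 3 motifs overlap in their letters. The only match in the 11 windows was a CCGGAAG on the plus strand of Mpc1, whose first base lies at -225 from the start. CCGGAAG occurs in 8.86 percent of all promoters, AAGGTCA in 4.72, TNAAGGTCA in 1.28, the direct repeat in 0.0396, GTAAACA in 3.65 and the NRF1 motif in 4.60 percent. A missing match says only that these letters are not in the window.

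Among the kinases, Pdk4 rose most. In PGC-1alpha-mTg it read 12.50, 12.35, 12.61, 12.36 and 12.60, against 12.05, 11.94, 12.00, 12.08 and 12.23 in WT. No WT array reached the lowest transgenic array, although WT replicate 5 came within 0.12 of it. The mean was 12.48 ± 0.13 in PGC-1alpha-mTg and 12.06 ± 0.11 in WT, a rise of 0.42 ± 0.08 or 1.34-fold (95% interval 1.19 to 1.50, adjusted p = 0.000305). In NCoR1-MKO Pdk4 read 12.82, 12.98, 12.89, 12.67 and 13.03, against 12.74, 12.82, 12.46, 12.68 and 12.91 in CON. The groups overlapped widely, and the change of 0.16 ± 0.08 did not pass (adjusted p = 0.485). The interval of this change ran from -0.01 to 0.32, and without CON 3 the change was 0.091 (adjusted p = 0.798). Pdk4 varied more between arrays of 1 group than the carrier or Pdpr did, with SDs of 0.13 in PGC-1alpha-mTg, 0.11 in WT, 0.14 in NCoR1-MKO and 0.17 in CON.

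Pdk2, a kinase gene expressed in most tissues, rose by less. Its levels were 12.19, 12.22, 12.25, 12.25 and 12.22 in PGC-1alpha-mTg, against 12.01, 12.07, 12.04, 12.10 and 12.00 in WT. The groups did not overlap, and the rise was 0.18 ± 0.04 or 1.13-fold (95% interval 1.07 to 1.20, adjusted p = 0.000783). This call depended on the scaling: with all 20 arrays brought to common quantiles the change of Pdk2 was 0.068 and did not pass (adjusted p = 0.164). In NCoR1-MKO the levels ran from 12.74 to 12.86, against 12.70 to 12.84 in CON, and the change was 0.05 ± 0.04 (adjusted p = 0.725).

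Pdk1, known as a kinase gene induced by low oxygen, went the other way. It read 8.44, 8.34, 8.26, 8.51 and 8.53 in PGC-1alpha-mTg, against 8.74, 8.51, 8.62, 8.68 and 8.66 in WT. All 5 transgenic arrays lay below the WT mean and 3 of them below the lowest WT array. The fall was -0.22 ± 0.05, or 0.857-fold (95% interval 0.793 to 0.926, adjusted p = 0.00285). In NCoR1-MKO the levels ran from 8.64 to 8.80, against 8.61 to 8.72 in CON, with a change of 0.03 ± 0.05 (adjusted p = 0.945).

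Pdk3, a kinase gene not typical of muscle, had low readings. Its level was 5.49 ± 0.16 in PGC-1alpha-mTg and 5.45 ± 0.07 in WT, and 5.45 ± 0.11 in NCoR1-MKO and 5.42 ± 0.06 in CON. The changes were 0.04 ± 0.07 (95% interval -0.10 to 0.17, adjusted p = 0.716) in PGC-1alpha-mTg and 0.03 ± 0.07 (95% interval -0.11 to 0.16, adjusted p = 0.957) in NCoR1-MKO. Their sign turned under some settings, so no direction is given for this gene.

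The phosphatase genes differed from one another. Pdpr, the regulatory subunit, showed the largest change of the 8 genes and one of the smallest spreads. It read 10.77, 10.84, 10.88, 10.83 and 10.82 in PGC-1alpha-mTg, against 10.36, 10.35, 10.34, 10.41 and 10.35 in WT. The gap between the groups was 0.36, several times the SD within either group (0.04 and 0.03). The rise was 0.47 ± 0.04 or 1.38-fold (95% interval 1.31 to 1.45, adjusted p = 5.37e-10), and 4.97 percent of all genes changed by more in either direction. In NCoR1-MKO it read 11.12, 11.02, 11.10, 11.06 and 11.09, against 11.04, 10.98, 10.98, 11.00 and 11.00 in CON. All 5 knockout arrays lay above the CON mean, yet the change of 0.08 ± 0.04 did not pass (adjusted p = 0.365).

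Pdp2, the catalytic subunit gene that is less typical of muscle than Pdp1, rose too. Its readings were rather low, with 44.1 percent of genes below it in mean level. The WT mean of 5.74 lay under the array medians of that cohort (5.84 to 5.91). Its levels were 5.87, 6.01, 6.17, 6.11 and 6.24 in PGC-1alpha-mTg, against 5.83, 5.89, 5.63, 5.70 and 5.65 in WT. All 5 transgenic arrays were above the WT mean, and 1 of them, replicate 1, lay within the WT range. The rise was 0.34 ± 0.07 or 1.27-fold (95% interval 1.14 to 1.40, adjusted p = 0.000708). In NCoR1-MKO Pdp2 ran from 6.02 to 6.40, against 6.11 to 6.23 in CON, and changed by 0.05 ± 0.07 (adjusted p = 0.906).

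Pdp1, the catalytic subunit gene typical of muscle, did not pass in either model. It read 11.06, 10.91, 10.87, 10.95 and 11.04 in PGC-1alpha-mTg, against 10.81, 10.94, 10.92, 10.96 and 10.78 in WT, a change of 0.09 ± 0.08 (95% interval -0.07 to 0.24, adjusted p = 0.455). It read 11.50, 11.41, 11.54, 11.59 and 11.63 in NCoR1-MKO, against 11.70, 11.76, 11.85, 11.48 and 11.33 in CON, a change of -0.09 ± 0.08 (95% interval -0.24 to 0.07, adjusted p = 0.793). The CON arrays were the most spread of any group for this gene, with an SD of 0.21 beside 0.08 in each other group. The intervals leave room for a change of 1.18-fold upwards in the transgenic muscle and 0.845-fold in the knockout.

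**Figure D2:**
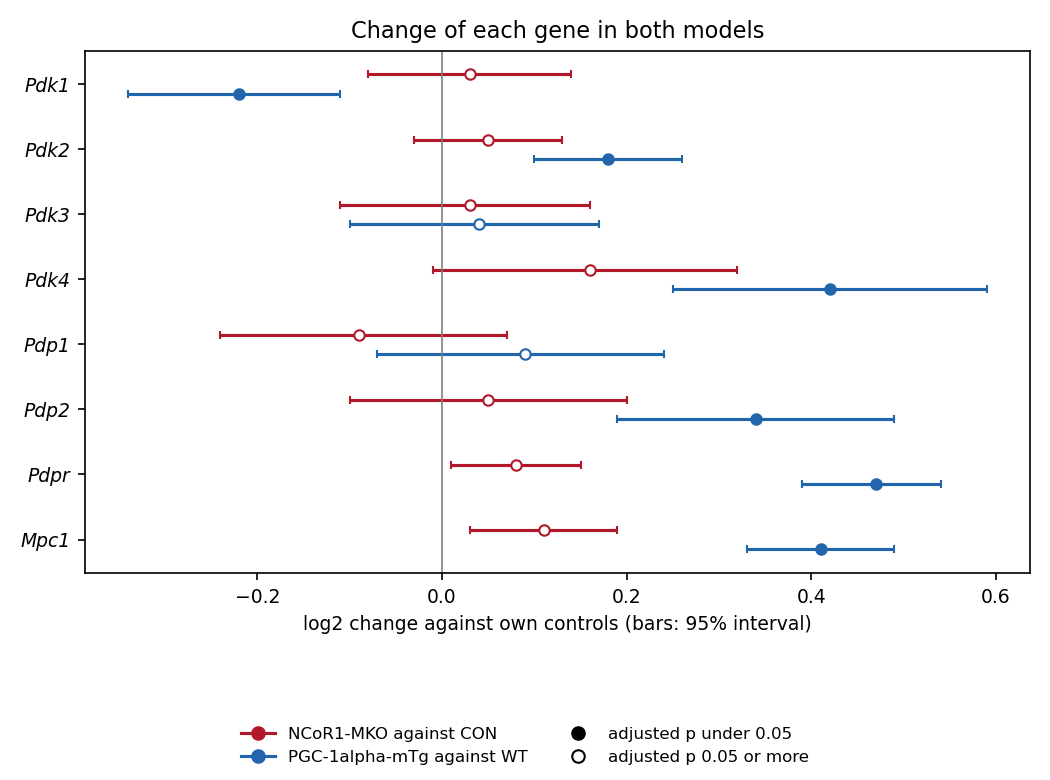
Change of each gene (log2, horizontal axis) in NCoR1-MKO against CON (red, upper of each pair) and PGC-1alpha-mTg against WT (blue, lower), with 95% intervals and filled points for an adjusted p under 0.05 (n = 5 per group). The 6 filled points are all of PGC-1alpha-mTg, with Pdk1 the only one below 0.

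Of the 8 genes, 4 had groups that did not overlap in PGC-1alpha-mTg against WT (Pdk2, Pdk4, Pdpr and Mpc1), all of them higher, beside 19.9 percent of all genes (8.72 percent higher and 11.2 percent lower). In NCoR1-MKO against CON the number was 0, beside 4.17 percent of all genes (2.21 percent higher and 1.96 percent lower). Both counts are of the values as deposited. With all 20 arrays brought to common quantiles, Pdpr and Mpc1 stayed apart in PGC-1alpha-mTg and WT. The Pdk4 ranges then overlapped (12.48 to 12.78 in PGC-1alpha-mTg, 12.22 to 12.53 in WT), and the Pdk2 ranges met at 12.35. With Pdk3 left aside, the change as deposited was positive for 6 of the other 7 genes in either model, with Pdp1 the exception in the knockout and Pdk1 in the transgenic muscle. The median change in the knockout was 0.05, beside 0.001 over all genes.

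The effects of the models were then compared with each other, as the change in PGC-1alpha-mTg minus that in NCoR1-MKO. The comparisons share no arrays, but model and cohort cannot be told apart. This difference passed for 3 of the 8 genes, beside 15.2 percent of all genes (6.66 percent higher and 8.50 percent lower). It was 0.39 ± 0.05 for Pdpr (adjusted p = 5.74e-06), 0.30 ± 0.06 for Mpc1 (adjusted p = 0.000510) and -0.25 ± 0.08 for Pdk1 (adjusted p = 0.0281). The Pdk1 difference lost its call without CON 4, NCoR1-MKO 1, NCoR1-MKO 3, WT 1, PGC-1alpha-mTg 2 or PGC-1alpha-mTg 3, each left out alone (adjusted p up to 0.0587). For Pdp2 the difference was 0.29 ± 0.10 (adjusted p = 0.0549), and it was called without NCoR1-MKO 3, WT 2 or PGC-1alpha-mTg 1 and with the dimmest genes left out (adjusted p from 0.0159 to 0.0369). For Pdk4 it was 0.27 ± 0.11 (adjusted p = 0.135), and without CON 3 it was 0.33 and passed (adjusted p = 0.0363). A larger effect of the transgene on Pdk4 than of the knockout is therefore not shown by the test over all arrays. For Pdk2 (0.13 ± 0.05, adjusted p = 0.117), Pdp1 (0.17 ± 0.11, adjusted p = 0.335) and Pdk3 (0.01 ± 0.09, adjusted p = 0.959) the difference did not pass either, although with trend and robust that of Pdk2 did (adjusted p = 0.0250).

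Levels across all 4 groups can be set side by side only after the arrays are brought to common quantiles, and even then the cohort stays confounded with the model. On that scale Mpc1 stood highest in PGC-1alpha-mTg at 12.40 ± 0.04, followed by WT at 12.10 ± 0.05, NCoR1-MKO at 12.08 ± 0.04 and CON at 12.00 ± 0.04, and every group after the first overlapped its neighbour. Pdpr was 11.03 ± 0.04 in PGC-1alpha-mTg, 10.87 ± 0.03 in NCoR1-MKO, 10.79 ± 0.03 in CON and 10.55 ± 0.04 in WT. The NCoR1-MKO and CON ranges of Pdpr met at 10.83 and the others were apart. Pdk4 was 12.65 ± 0.14 in PGC-1alpha-mTg, 12.65 ± 0.13 in NCoR1-MKO, 12.52 ± 0.17 in CON and 12.33 ± 0.12 in WT, with each neighbour overlapping the next. Pdk1 was 8.59 ± 0.06 in PGC-1alpha-mTg and 8.56 ± 0.07 in NCoR1-MKO, against 8.52 ± 0.04 in CON and 8.79 ± 0.09 in WT. For Pdk1, WT was highest and its lowest array, 8.64, lay within the PGC-1alpha-mTg range, which also overlapped the ranges of NCoR1-MKO and CON. Pdk2 was 12.38 ± 0.02 in PGC-1alpha-mTg and 12.60 ± 0.05 in NCoR1-MKO, against 12.31 ± 0.03 in WT and 12.56 ± 0.05 in CON, so the cohorts lay further apart than the groups within them. Pdp1 was likewise lower in the cohort of the transgene, with 11.16 ± 0.07 in PGC-1alpha-mTg and 11.10 ± 0.08 in WT beside 11.33 ± 0.08 in NCoR1-MKO and 11.42 ± 0.21 in CON. Pdp2 was lowest in WT at 5.81 ± 0.12, while PGC-1alpha-mTg at 6.14 ± 0.16, NCoR1-MKO at 6.15 ± 0.16 and CON at 6.10 ± 0.04 overlapped widely. The 4 groups overlapped for Pdk3, with means between 5.38 and 5.51.

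**Figure D3:**
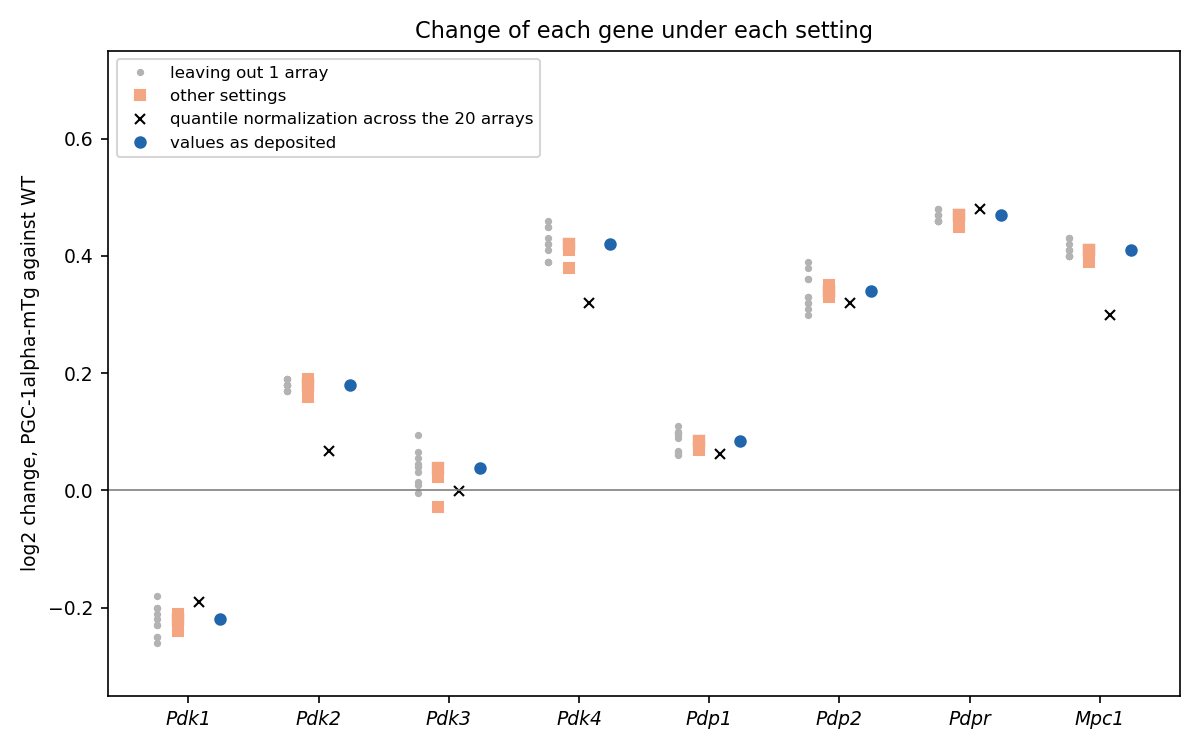
Change of each gene (log2, vertical axis) in PGC-1alpha-mTg against WT as deposited (blue), after quantile normalization across the 20 arrays (cross), under the other settings (orange) and with 1 array left out (grey). The Pdk2 change was 0.18 as deposited and 0.068 after quantile normalization, while Pdpr stayed between 0.46 and 0.48 with any 1 array left out.

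By the root mean square difference of log2 values, each taken from the mean of the cohort's own controls, the genes most like Pdpr over the 20 arrays were Ndufa3, a subunit of respiratory complex I (0.029), Mdh2, the mitochondrial malate dehydrogenase (0.042), and Isca1, which takes part in iron-sulfur cluster assembly (0.042). The median over all genes was 0.252. Ndufa3 changed by 0.50 ± 0.04 in PGC-1alpha-mTg and 0.10 ± 0.04 in NCoR1-MKO. The same values were 0.43 ± 0.03 and 0.12 ± 0.03 for Mdh2, and 0.53 ± 0.04 and 0.10 ± 0.04 for Isca1.

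The target of the kinases and phosphatases, the pyruvate dehydrogenase complex itself, rose further than its regulators in the transgenic muscle. All 5 of its genes rose in PGC-1alpha-mTg, by 0.60 to 1.01 with a median of 0.83. Dlat, the acetyltransferase core, rose by 1.01 ± 0.04 and had a level of 11.37 ± 0.03, against 10.35 ± 0.03 in WT. Dld, the shared dihydrolipoamide dehydrogenase, rose by 0.87 ± 0.06, and Pdhb, the beta subunit of E1, by 0.83 ± 0.05. In the knockout 2 of the 5 were called, Pdhb at 0.21 ± 0.05 and Dlat at 0.20 ± 0.04, and the median was 0.18. Without CON 3, CON 5, NCoR1-MKO 3 or NCoR1-MKO 5 only Dlat was called, and likewise with array medians set equal or with the 10 arrays of the comparison alone. No regulator changed by as much as the least changed subunit did in the transgenic muscle, a comparison of changes and not of levels, for which no test was made.

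**Figure D4:**
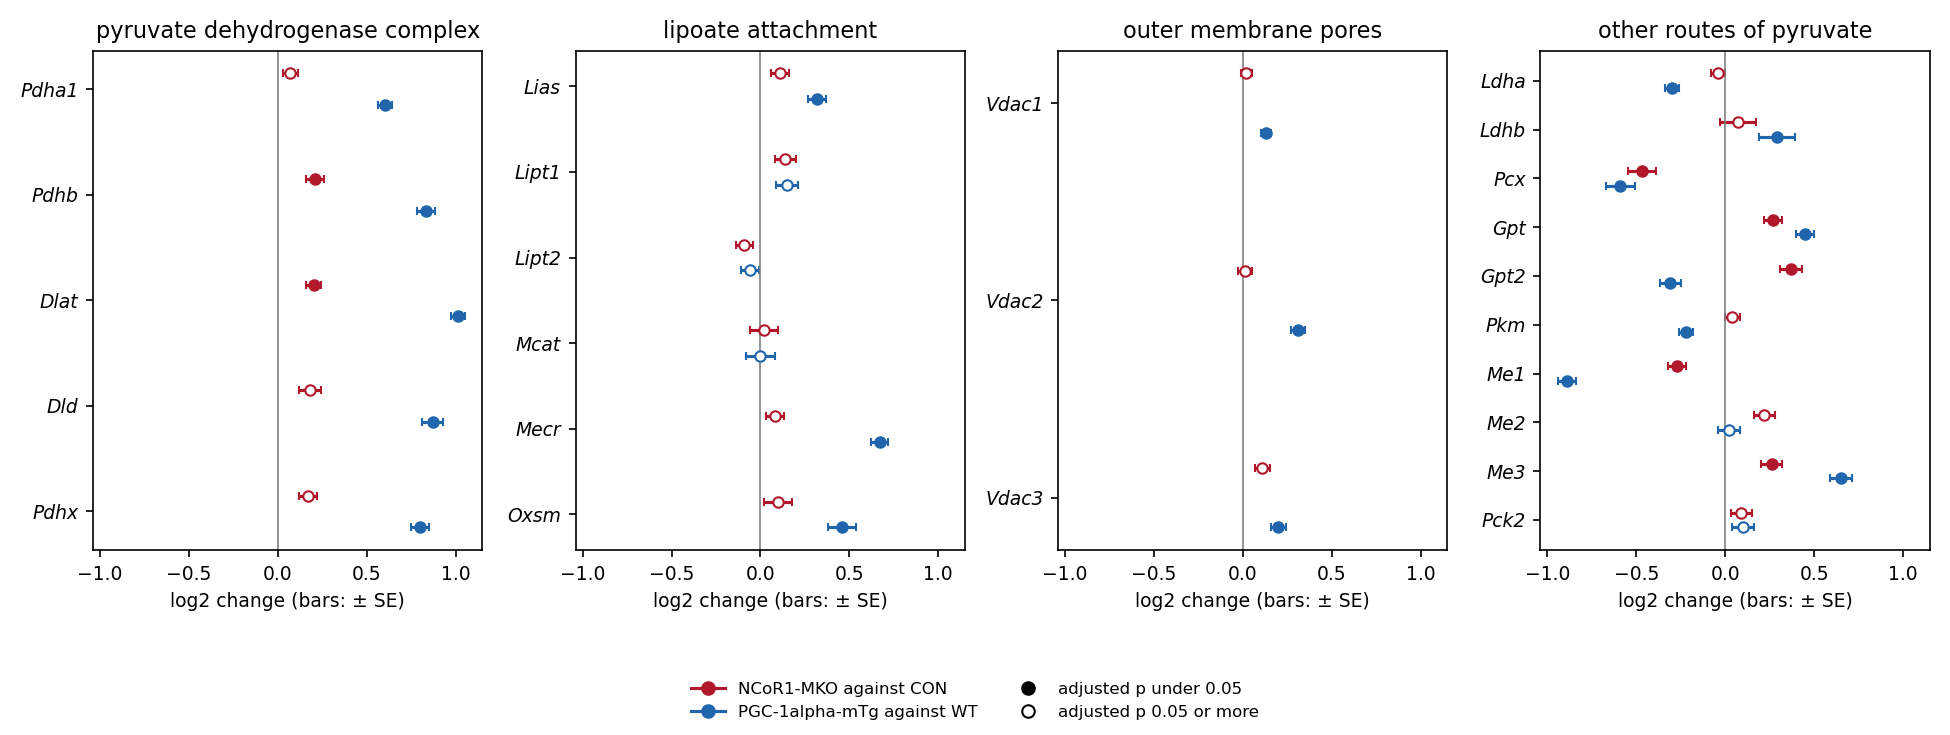
Change (log2 ± SE, horizontal axes) of genes around the pyruvate step in NCoR1-MKO against CON (red) and PGC-1alpha-mTg against WT (blue), filled where the adjusted p was under 0.05 (n = 5 per group). All 5 genes of the pyruvate dehydrogenase complex lie between 0.60 and 1.01 in PGC-1alpha-mTg, while the other routes of pyruvate point both ways.

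Genes that make and attach lipoate, the cofactor of Dlat, were higher in part. In PGC-1alpha-mTg 3 of 6 rose, Mecr (0.67 ± 0.05) and Oxsm (0.46 ± 0.08) of mitochondrial fatty acid synthesis and the lipoate synthase gene Lias (0.32 ± 0.05). The knockout had 0 of 6 called. All 3 genes of the outer membrane pores, through which pyruvate passes first, rose in PGC-1alpha-mTg, Vdac2 by 0.31 ± 0.04, Vdac3 by 0.20 ± 0.04 and Vdac1 by 0.13 ± 0.03. With all 20 arrays brought to common quantiles, Vdac1 lost its call (adjusted p = 0.525). In NCoR1-MKO 0 of the 3 were called.

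The branched-chain ketoacid dehydrogenase is a related complex with its own kinase and phosphatase. Of 5 genes of this list, 2 rose in PGC-1alpha-mTg, the subunit genes Bckdha (0.62 ± 0.05) and Dbt (0.28 ± 0.05). The kinase gene Bckdk (0.10 ± 0.05, adjusted p = 0.109) and the phosphatase gene Ppm1k (0.21 ± 0.08, adjusted p = 0.0609) did not pass. In NCoR1-MKO only Bckdha was called (0.17 ± 0.05, adjusted p = 0.0453), and the call was lost without any 1 of 9 of the 10 arrays, NCoR1-MKO 4 being the exception.

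Other routes to and from pyruvate moved in both directions. In PGC-1alpha-mTg 3 of 10 genes rose and 5 fell. Me1, the cytosolic malic enzyme, fell by 0.89 on the log2 scale (SE 0.05), and Pcx, the pyruvate carboxylase, changed by -0.59 ± 0.08, while the mitochondrial malic enzyme gene Me3 rose by 0.65 ± 0.06. In NCoR1-MKO 3 rose and 2 fell, Pcx among them at -0.47 ± 0.08. The alanine aminotransferase genes Gpt2 and Gpt, which interconvert pyruvate and alanine, rose by 0.37 ± 0.06 and 0.27 ± 0.05. Me1 (-0.27 ± 0.05) and Me3 (0.26 ± 0.06) were called in NCoR1-MKO in the same directions as in PGC-1alpha-mTg. Gpt rose in PGC-1alpha-mTg as well (0.45 ± 0.05), and its difference of effects did not pass (adjusted p = 0.102). Gpt2 went in opposite directions in the models, with -0.31 ± 0.06 in PGC-1alpha-mTg against WT, and the difference of the effects was -0.68 ± 0.09 (adjusted p = 5.33e-06).

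Factors known to act on Pdk4 were examined as levels of their own transcripts. In PGC-1alpha-mTg 5 of 16 rose and 4 fell. The 5 include Ppargc1a itself, which this model overexpresses by design. The orphan receptor genes Esrrb (1.35 ± 0.08) and Esrra (0.66 ± 0.05) rose too. The 4 that fell were Rxra (-0.36 ± 0.06), Nr3c1 (-0.29 ± 0.06), Foxo4 (-0.26 ± 0.06) and Hdac3 (-0.2 ± 0.05). The median change of the 16 was -0.1, with 10 of them negative. In NCoR1-MKO only the coactivator gene Ppargc1b was called (0.51 ± 0.12, adjusted p = 0.0193), and not without CON 3, NCoR1-MKO 3 or NCoR1-MKO 4. Ppara, the receptor gene of the fasting response, had a difference of effects of 0.84 ± 0.16 (adjusted p = 0.000828). It stood at 0.49 ± 0.12 in PGC-1alpha-mTg and at -0.36 ± 0.12 in NCoR1-MKO, where it did not pass (adjusted p = 0.127).

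Genes that are known to respond to fasting or fatty acids alongside Pdk4 mostly rose with it in the transgenic muscle. Of 13 measured, 11 rose and 1 fell in PGC-1alpha-mTg at a median of 0.55, beside a rise of 0.42 for Pdk4. The gene that fell was Plin2 (-0.45 ± 0.05). Angptl4 (0.47 ± 0.14) lost its call without PGC-1alpha-mTg 1 or PGC-1alpha-mTg 3 (adjusted p up to 0.0642). Acadl, a dehydrogenase of fatty acid oxidation, rose by 0.98 ± 0.07, the uncoupling protein gene Ucp3 by 0.95 ± 0.16 and the acylcarnitine carrier gene Slc25a20 by 0.93 ± 0.06. In NCoR1-MKO only Slc25a20 was called (0.30 ± 0.06), at a list median of 0.10. These lists were made with earlier results of the data known, and each is described by its counts alone. The counts stand beside 11.9 percent of all genes called higher and 16.1 percent lower in PGC-1alpha-mTg. In NCoR1-MKO the shares were 1.31 and 1.32 percent.

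Some markers of other cells and fibre types were called in the same samples. Over all genes, 11.9 percent were called higher and 16.1 percent lower in PGC-1alpha-mTg. In NCoR1-MKO the shares were 1.31 and 1.32 percent. In PGC-1alpha-mTg 7 of 10 endothelial markers rose, with array means of 8.72 to 8.86 in PGC-1alpha-mTg and 8.35 to 8.59 in WT, and 6 of 8 slow fibre markers fell, with array means of 8.79 to 9.63 in PGC-1alpha-mTg and 9.79 to 10.36 in WT. Of 8 fibroblast markers 3 fell (1 without PGC-1alpha-mTg 3), with array means of 8.53 to 8.76 in PGC-1alpha-mTg and 8.74 to 8.93 in WT. Of 7 smooth muscle markers 2 rose, Rgs5 and Pdgfrb, while Myh11, Acta2, Tagln, Cnn1 and Cspg4 did not pass. The array means were 8.20 to 8.34 in PGC-1alpha-mTg and 8.03 to 8.15 in WT. Of 6 nerve markers 2 fell, Ncam1 and Pmp22, while Mbp, S100b, Sox10 and Nefl did not pass. The array means were 6.67 to 6.81 in PGC-1alpha-mTg and 6.82 to 7.02 in WT. Only 1 of the 6 nerve markers fell without WT 3, 4 or 5 or PGC-1alpha-mTg 3 or 4. Of 6 adipocyte markers 1 rose, Fabp4, which endothelium also expresses, with array means of 7.41 to 7.91 in PGC-1alpha-mTg and 7.13 to 7.73 in WT. Of 8 macrophage and 2 blood markers 0 were called in either model. In NCoR1-MKO 2 of 8 slow fibre markers fell, with array means of 8.58 to 9.79 in NCoR1-MKO and 9.42 to 10.43 in CON, and 1 of 10 endothelial markers rose, with 8.85 to 9.18 in NCoR1-MKO and 8.65 to 8.90 in CON. With 1 array left out these counts ran from 1 to 5, lowest without CON 1, CON 2 or NCoR1-MKO 5, and from 0 to 2, lowest without CON 3 or NCoR1-MKO 1. With array weights 3 endothelial markers rose, and with the 10 arrays alone or with trend and robust 1 slow fibre marker fell. The slow fibre counts differ more between the models than the sizes of change do. The median change of the 8 slow fibre markers was -0.79 in NCoR1-MKO and -0.7 in PGC-1alpha-mTg. The difference of the effects was called for 1 of the 8, Myoz2. The part of all these markers in the changes of the pyruvate genes was not tested.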

How the data were processed

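Affymetrix mouse gene arrays were run on 20 gastrocnemius samples from 250 ng of total RNA each, per the labels' protocols. The deposited values are log2 expression values that the authors made by RMA, with Partek named beside it and no version, build or annotation, per the submitters' processing notes. RMA gives log2, and the values ran from 2.66 to 14.47. The mean absolute difference of quantiles between a pair of arrays was at most 0.0630 within a cohort. Between cohorts it was 0.169 to 0.228, so each cohort appears to have been normalized by itself. An array has no read depth: 5 arrays a group limit the precision.

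Of 35556 probe sets, 21789 had 1 symbol, 1621 several and 12146 none here, and 21698 matched RefSeq (GRCm38.p6) by Entrez number. The brightest probe set was used for the 999 genes with several. Group means were fitted to all 20 arrays and 19938 genes by limma (version 3.58.1, R 4.3.3) with lmFit, contrasts.fit and eBayes. Tests were two-sided, and the fit was tested on simulated data. The members, gene lists and motifs were chosen with earlier results of these data known, and the motifs AAGGTCA, of ETS factors and of NRF1 were added after the values were seen. Named in the text are all members and the targeted genes, per list and comparison up to 3 called genes with the largest changes (otherwise up to 2 with the smallest p), and the 3 genes most like the most changed member. Some other genes of the lists are named too, such as those that fell where others rose. The closing section gives the alternatives.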

Additional observations from a re-analysis of the deposited data

Results flagged for a closer look

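The effects of the models differed for 3 of the 8 genes by the test of the difference itself, PGC-1alpha-mTg against WT minus NCoR1-MKO against CON, beside 15.2 percent of all genes. For Pdpr the difference was 0.39, from a change of 0.47 in PGC-1alpha-mTg and 0.08 in NCoR1-MKO. Mpc1 differed by 0.30, with changes of 0.41 and 0.11 in the same order, read by a probe set whose identity is uncertain. Pdk1 differed by -0.25, with -0.22 in PGC-1alpha-mTg and 0.03 in NCoR1-MKO, and lost its call without any 1 of 6 arrays (adjusted p up to 0.0587). Each model was measured in a cohort of its own, so model and cohort cannot be told apart. In 32 groups of 5 values, 4 for each of the 8 genes, 0 values stood far from the rest of their group by Dixon's criterion.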

How the results depend on the processing

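Alternatives were quantile normalization over the 20 arrays, array medians set equal, removal of the dimmest 40 percent of genes (Pdk3 among them), averaged probe sets, the 10 arrays of a comparison alone, eBayes with trend and robust, array weights, the replicate block and leaving out each array. With each array of a cohort left out in turn, 6 of the 8 genes were called in PGC-1alpha-mTg each time and 0 in NCoR1-MKO. The number for the difference ran from 2 to 4. Genes called in all ran from 4868 to 6544 in PGC-1alpha-mTg (highest without PGC-1alpha-mTg 5), from 370 to 517 in NCoR1-MKO and from 2648 to 3736 for the difference. With trend and robust 1 of the 8 genes was called in NCoR1-MKO. Pdk2 in PGC-1alpha-mTg was 0.068 after quantile normalization. Pdk4 and Mpc1 were then smaller too, at 0.32 and 0.3, and kept their calls (adjusted p = 0.0045 and 9.58e-07). Pdk3 reversed its sign: in PGC-1alpha-mTg to -0.001 after quantile normalization and -0.029 with array weights, and in the difference to -0.026 and -0.049. With 1 array left out Pdk3 ran from -0.005 to 0.095 in PGC-1alpha-mTg, from -0.006 to 0.056 in NCoR1-MKO and from -0.033 to 0.067 in the difference. The cause was not tested. The replicate number did not pair the samples, with correlations of deviations from -0.132 to 0.040 in NCoR1-MKO with CON and from -0.232 to 0.196 in PGC-1alpha-mTg with WT. Samples correlated best with their own number for 2 of 10 numbers. With the replicate block 6, 0 and 3 genes were called in PGC-1alpha-mTg, NCoR1-MKO and the difference, and 5318, 370 and 2631 over all genes, so it changed no call among the 8 genes. It did end both calls in the pyruvate dehydrogenase complex in NCoR1-MKO (Dlat at an adjusted p of 0.0512), and there 6 of 8 slow fibre markers fell and 0 endothelial markers rose.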
